A study of Mus musculus with 3 samples.

Results

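The genes described here encode the subunits of the proteasome, its activators and its assembly chaperones, as measured in mouse kidney by single-colour Affymetrix arrays. They were chosen by name, as every probe set whose single platform gene symbol starts with Psm, a letter from a to g and a number. The rule found 103 of the 34945 probe sets with 1 gene symbol, belonging to 49 of 18193 genes. Of these, 84 probe sets of 47 genes were tested, having a mean over the arrays within the top 60% of all probe sets. Psma8, an alpha subunit known from testis, did not reach that level, with 3.76 in the control and 3.45 and 3.61 in the acetate-fed kidneys. Nor did Psmb11, the thymus subunit, with 3.32 on all 3 arrays. Psmc3ip and Psme3ip1 were also matched by the rule, although they are proteins named after a subunit and not subunits themselves. Psme2 is not a member, because its probe set carries 2 gene symbols, and its values were not used here.

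The study compared 1 control kidney with the kidneys of 2 mice fed acetate (called C2 in the labels), a short-chain fatty acid. Acetate was given at 200 mM in the drinking water for 6 weeks, starting at 3 weeks of age. All 3 mice were C57BL/6 animals in conventional housing, with 1 array for each mouse. The sources used here do not give their sex, what the control drank or the salt form of the acetate. All values are the deposited log2 expression values, so a difference of 1 is a 2-fold change, and each difference is an acetate-fed mouse minus the single control. The control has no replicate, so the spread comes from the acetate-fed pair alone and leaves limma's test 1 residual degree of freedom. With 1 control against 2 animals no exact permutation test can reach a p of 0.05.

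The proteasome degrades proteins tagged with ubiquitin. Its 20S core is a barrel of alpha rings, which form the gates, around beta rings, which hold the catalytic sites. The 19S particle caps the core, where its non-ATPase subunits bind and free ubiquitin and its ATPase ring unfolds the substrate. Interferon-gamma induces Psmb8, Psmb9 and Psmb10, which replace the constitutive catalytic subunits Psmb5, Psmb6 and Psmb7 in newly built cores and give the immunoproteasome, known for making peptides for MHC class I. Psme1 and Psme2 form the PA28 activator and are induced by the same signal. Leukocytes carry immunoproteasomes without such induction, while the tubule epithelium of the resting kidney is built mostly with constitutive subunits.

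The promoters of 2 replacement pairs and of Psme1 are shown because the contrast chosen for these genes sets inducible against constitutive subunits. Psmb10, whose window held 0 matches to each motif searched, is not shown, and Psmb7 had no window. The windows are from RefSeq on GRCm38.p6, cover 250 bases before to 50 bases after the start of each gene and are written 5′ to 3′ on the strand of the gene. Capitals mark the match to the motif named for each gene.

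Psmb8, chr17:34197945-34198244, plus strand, with TTCNNNGAA, the gamma-activated site of interferon-gamma signalling, in capitals: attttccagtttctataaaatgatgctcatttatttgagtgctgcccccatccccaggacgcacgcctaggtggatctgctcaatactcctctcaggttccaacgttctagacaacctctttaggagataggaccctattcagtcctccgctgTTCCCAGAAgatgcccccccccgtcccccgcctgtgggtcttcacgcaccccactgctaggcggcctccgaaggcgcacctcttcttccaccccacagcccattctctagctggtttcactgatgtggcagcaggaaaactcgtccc
Psmb5, chr14:54617946-54618245, minus strand, with TGACNNNGC, the core of the antioxidant response element, in capitals: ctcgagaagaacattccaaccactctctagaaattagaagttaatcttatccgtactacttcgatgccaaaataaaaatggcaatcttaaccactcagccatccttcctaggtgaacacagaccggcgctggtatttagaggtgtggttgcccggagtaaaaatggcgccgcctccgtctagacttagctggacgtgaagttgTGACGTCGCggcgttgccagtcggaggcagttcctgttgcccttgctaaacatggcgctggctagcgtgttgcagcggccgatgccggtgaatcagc
Psmb9, chr17:34187281-34187580, minus strand, with CCAAT, here on the opposite strand, in capitals: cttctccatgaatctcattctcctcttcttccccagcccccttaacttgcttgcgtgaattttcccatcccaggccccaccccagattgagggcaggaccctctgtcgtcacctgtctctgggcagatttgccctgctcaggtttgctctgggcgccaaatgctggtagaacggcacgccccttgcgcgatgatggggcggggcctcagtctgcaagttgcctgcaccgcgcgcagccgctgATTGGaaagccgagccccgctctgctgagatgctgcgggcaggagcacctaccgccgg
Psmb6, chr11:70525107-70525406, plus strand, with TGACNNNGC in capitals: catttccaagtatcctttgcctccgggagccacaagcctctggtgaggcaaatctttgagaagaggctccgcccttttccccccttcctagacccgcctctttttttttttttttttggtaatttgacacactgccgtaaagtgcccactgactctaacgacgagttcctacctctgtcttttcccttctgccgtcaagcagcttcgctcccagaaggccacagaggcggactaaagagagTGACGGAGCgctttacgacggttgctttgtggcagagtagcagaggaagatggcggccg
Psme1, chr14:55578244-55578543, plus strand, with GAAANNGAA, the core of the interferon-stimulated response element, here on the opposite strand, in capitals: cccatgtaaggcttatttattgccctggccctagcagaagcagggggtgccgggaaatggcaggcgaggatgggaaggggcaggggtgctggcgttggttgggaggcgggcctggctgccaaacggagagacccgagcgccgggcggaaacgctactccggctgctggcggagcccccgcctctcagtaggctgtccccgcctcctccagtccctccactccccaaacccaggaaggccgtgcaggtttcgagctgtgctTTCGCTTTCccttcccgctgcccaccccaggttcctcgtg

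The 4 motifs (TTCNNNGAA, GAAANNGAA, TGACNNNGC and CCAAT) were searched on both strands, and none of the matches printed here overlaps a match of another. A promoter was in the table for 41 of the 49 members, and not for Psma8, Psmb1, Psmb2, Psmb7, Psmc3, Psmd3, Psmd7 and Psmg2. The letters TTCNNNGAA were found in 1 of 4 inducible promoters (Psmb8, bases 154 to 162 of the window) and in 1 of 25 constitutive ones (Psmd2), beside 8.30% of all 32851 promoters. The letters GAAANNGAA were found in 1 of 4 inducible promoters (Psme1, bases 261 to 269) and in 4 of 25 constitutive ones (Psmb3, Psmb4, Psmc2 and Psmd4), beside 8.56% of all. The letters TGACNNNGC were found in 0 of 4 inducible and in 4 of 25 constitutive promoters (Psmb5, Psmb6, Psmc6 and Psmd12), beside 12.4% of all. CCAAT was found in 1 of 4 and 10 of 25, beside 37.4% of all. The windows of Psmb9 and of Tap1, which encodes a chain of the peptide transporter, lie head to head and share 275 bases of chromosome 17. Psmb8 is the next gene on the other side of Tap1. A match is a description of letters in a window, and neither a match nor its absence says whether a factor binds there.

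Both acetate-fed kidneys exceeded the control at 4 of 4 tested inducible subunit genes, with Psme2 not used. The constitutive subunits lay within 0.31 of the control on the log2 scale in both mice. Over all 13473 tested genes, 26% were higher and 30.9% were lower than the control in both mice. Psmb8 and Psme1 were at least 1.2-fold higher in both, which held for 6.47% of all tested genes, and no constitutive subunit was. None of the 47 tested members was at least 2-fold from the control in both mice, against 0.868% of all tested genes. By limma with Benjamini-Hochberg adjustment over all tested probe sets, 0 of the 47 genes passed at 0.05, against 3.97% of tested genes called higher and 4.92% called lower, and 4 of the 47 (Psma5, Psmd3, Psme1 and Psme4) had an unadjusted p under 0.05, beside 19.3% of all tested genes.

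Psmb8, the inducible counterpart of Psmb5 and a chymotrypsin-like protease subunit, had a log2 level of 8.04 in the control kidney, 8.84 in acetate-fed mouse 1 and 8.41 in acetate-fed mouse 2 (mean 8.62 ± 0.31, SD, n = 2). It was 1.75-fold higher than the control in mouse 1 and 1.29-fold in mouse 2. Both acetate-fed values lay above the control, and the mean difference of 0.59 was larger than the gap of 0.44 between the 2 mice. The limma fit gave a difference of 0.59 (SE 0.32, adjusted p = 0.67). With probe sets of exactly tied acetate-fed pairs left out of the fit, Psmb8 passed (adjusted p = 0.0089), the only member gene to do so, beside 6.6% of the genes left in that fit called higher and 6.12% called lower. That fit took its spread mostly from the other probe sets, with 26.5 prior degrees of freedom beside 1 from the acetate-fed pair. A Psmb8 probe set that was not tested stood at 2.97 on all 3 arrays.

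Psmb9, which replaces Psmb6 and changes that site from caspase-like to chymotrypsin-like cleavage, was 7.42 in the control kidney, 7.92 in mouse 1 and 7.57 in mouse 2 (mean 7.74 ± 0.25, SD, n = 2). It was 1.41-fold and 1.11-fold higher. The gap of 0.35 between the mice exceeded the mean difference of 0.32 (limma adjusted p = 0.83). Psmb10, which replaces the trypsin-like Psmb7, was 8.34, 8.69 and 8.40 (mean 8.54 ± 0.20, SD, n = 2), or 1.27-fold and 1.04-fold higher. Its gap of 0.29 between the mice likewise exceeded the mean difference of 0.20 (limma adjusted p = 0.87). For both genes mouse 2 stood close to the control and mouse 1 apart from both.

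Psme1, the alpha chain of the PA28 activator, was 10.43 in the control kidney, 10.71 in mouse 1 and 10.75 in mouse 2 (mean 10.73 ± 0.028, SD, n = 2). It was 1.21-fold and 1.25-fold higher, and here mouse 2 was the higher of the pair. The mean difference of 0.30 was well above the gap of 0.040 between the mice, and limma gave the lowest adjusted p of the 4 (SE 0.030, adjusted p = 0.18). The catalytic inducible subunits were thus higher in mouse 1 than in mouse 2 at 3 of 3 genes, and Psme1 was not.

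**Figure D1:**
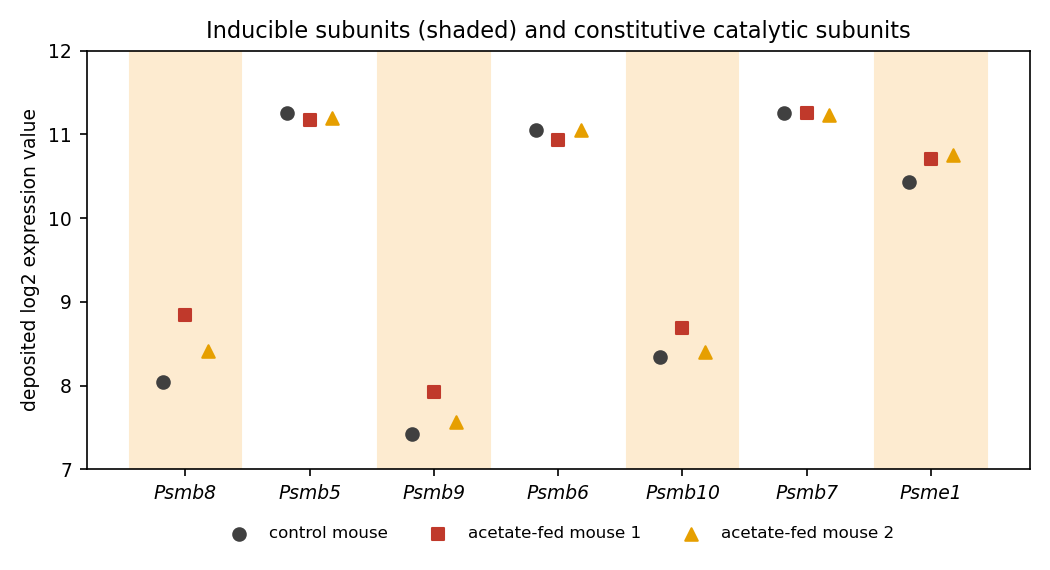
Deposited log2 expression values (y axis) of the 4 inducible subunits (shaded) and the 3 constitutive catalytic subunits (unshaded), 1 point for each of the 3 arrays. The control point lies below both acetate-fed points for each shaded gene, and the 3 points of Psmb5, Psmb6 and Psmb7 lie within 0.12 of each other; heights of different genes are not comparable, since each comes from its own probe set.

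Markers of other cells differed between the same arrays. All 15 of 15 leukocyte markers exceeded the control in both mice, and their median difference was 1.70 for mouse 1 against 0.98 for mouse 2. At 6 of the 15 it was at least 2-fold in both. The log2 of their summed level was 12.11 in the control and ranged from 13.19 to 13.94 in the acetate-fed kidneys. Lyz2, the macrophage lysozyme gene, was 8.49 in the control kidney, 11.59 in mouse 1 and 10.26 in mouse 2, and the cathepsin gene Ctss was 7.95, 10.03 and 9.25. The order control, mouse 2, mouse 1 is that of Psmb8, Psmb9 and Psmb10, but not of Psme1. How many of all tested genes had this order was not counted. Of 8 tested lymphocyte markers 4 were higher and 1 was lower in both mice, with medians of 0.11 and 0.018. Of 5 tested adipose markers 5 were lower in both. Adipoq, the adipocyte hormone adiponectin, was 9.98 in the control kidney, 4.38 in mouse 1 and 3.87 in mouse 2. The log2 of the summed adipose markers was 11.84 in the control and 9.93 to 10.08 in the acetate-fed kidneys. Proximal tubule markers were lower in both mice at 9 of 10 genes, with medians of -0.26 and -0.43, and all 10 stood at 9.82 or more on every array, as did Umod and Aqp2, so that the label kidney was borne out on each. Markers of other kidney cells (nephron, collecting duct, glomerulus and endothelium) exceeded the control in both mice at 8 of 8 genes. Their medians were 0.25 for mouse 1 and 0.39 for mouse 2. At 4 of the 8 the difference was at least 1.2-fold in both, beside 6.47% of all tested genes. Kdr was the lowest, with differences of 0.016 and 0.035. The part of all these cell types in the proteasome values was not tested. In whole tissue, fewer cells of a type and less RNA in each cell cannot be told apart.

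Set against the subunit that it replaces, each inducible catalytic subunit was shifted upward in both mice. The difference of Psmb8 exceeded that of Psmb5 by 0.89 in mouse 1 and 0.43 in mouse 2, which is a 1.86-fold and a 1.34-fold shift within the pair. Psmb9 exceeded Psmb6 by 0.61 and 0.15, or 1.53-fold and 1.11-fold. Psmb10 exceeded Psmb7 by 0.35 and 0.083, or 1.27-fold and 1.06-fold. The shift was larger in mouse 1 for each of the 3 pairs, and followed the order Psmb8, Psmb9, Psmb10 in both mice. These are differences between differences from the same control and carry no test.

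The median difference of the 4 inducible genes was 0.42 for mouse 1 and 0.23 for mouse 2, and that of the 31 constitutive genes -0.045 and -0.0045, beside 0 and 0 over all tested genes. In mouse 1 the groups did not overlap: the lowest inducible value was 0.28 (Psme1) and the highest constitutive one 0.093 (Psmd2). Over all 13473 tested genes the differences in mouse 1 ran from -5.60 to 4.08, and 4464 genes were above the control. How many of them lay above 0.28 or 0.093 was not counted. In mouse 2 the groups did overlap, since 2 constitutive genes, Psma7 and Psmd13, stood above the 0.059 of Psmb10. The gap between the 2 medians was 0.47 in mouse 1 and 0.24 in mouse 2. No p is given for a group, because genes are not replicates and the control is 1 array.

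**Figure D2:**
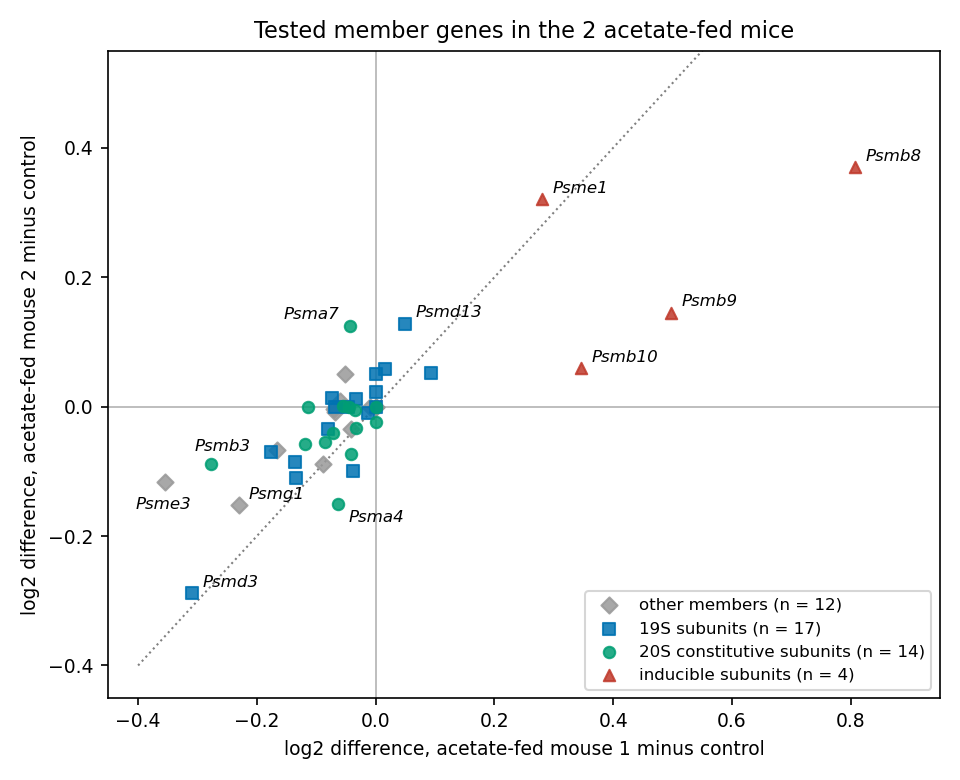
Log2 difference from the control in acetate-fed mouse 1 (x axis) and mouse 2 (y axis), 1 point for each of the 47 tested genes, by kind of subunit; the dotted line marks equal differences in both mice. The 4 inducible genes lie at the upper right, Psme1 near the line and Psmb8, Psmb9 and Psmb10 below it, while the constitutive subunits gather around 0 with Psmd3 lowest in both mice.

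Of the 31 constitutive genes, 15 were lower and 3 were higher than the control in both mice and 2 had the same value on all 3 arrays, as had 17.9% of all tested genes. By mouse, 23 were lower and 3 higher in mouse 1, and 16 lower and 9 higher in mouse 2. Of all 13473 tested genes, 5682 were lower and 4464 higher in mouse 1, and 5047 lower and 4912 higher in mouse 2. Only Psmd3 was at least 1.2-fold from the control in both mice, and 6.87% of all tested genes were lower by that much. With each array centred on its median, which lowered the median of all tested genes by 0.031 in mouse 1 and 0.015 in mouse 2, 25 of the 31 were lower in both, beside 59.7% of all tested genes.

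The alpha ring subunits Psma1 to Psma7, which gate the core, were lower in both mice at 5 of 7 genes, with differences between -0.15 and 0.13. Psma4 had the largest of these, with a log2 level of 11.21 in the control kidney, 11.15 in mouse 1 and 11.06 in mouse 2 (limma adjusted p = 0.71). Psma2 was 11.11 in the control and 11.07 and 11.10 in the acetate-fed mice, Psma3 was 10.88, 10.84 and 10.81, and Psma6 was 10.58, 10.51 and 10.54. Psma5 was 9.99 in the control and 9.96 in both mice (limma adjusted p = 0.22), and Psma1 was 9.39 on all 3 arrays. Psma7 was 10.00 in the control kidney, 9.96 in mouse 1 and 10.13 in mouse 2, so the 2 acetate-fed mice lay on opposite sides of the control. Its other tested probe set also lay below the control in mouse 1 and above it in mouse 2.

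Among the beta subunits without a catalytic site, Psmb1 to Psmb4, 2 of 4 were lower in both mice. Psmb3 was 10.80 in the control kidney, 10.52 in mouse 1 and 10.71 in mouse 2, a gap between the mice of 0.19 beside a mean difference of -0.18 (limma adjusted p = 0.80). Its other tested probe set differed from the control by -0.098 and -0.032. Psmb1 was 10.71, 10.60 and 10.66, with 3 of its 3 tested probe sets below the control on average, and Psmb2 was 9.98, 9.94 and 9.98. The main Psmb4 probe set was 11.25, 11.19 and 11.25, while another was 9.36, 9.30 and 9.62, higher than the control in mouse 2 alone.

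The constitutive catalytic subunits differed little from the control. Psmb5, the chymotrypsin-like subunit, was 11.25 in the control kidney, 11.17 in mouse 1 and 11.20 in mouse 2 (limma adjusted p = 0.47). Psmb6 was 11.05, 10.94 and 11.05, equal to the control in mouse 2, and Psmb7 was 11.25, 11.25 and 11.23, equal to it in mouse 1. The mean difference of Psmb7, -0.012, turned to 0.020 with quantile normalization.

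Of the 19S ATPases Psmc1 to Psmc6, the unfolding motor, 1 of 6 was lower in both mice and none was higher in both, with all differences between -0.080 and 0.023. Psmc2 was the 1 below the control in both, at 10.20 in the control kidney, 10.12 in mouse 1 and 10.16 in mouse 2 (limma adjusted p = 0.70). Psmc1 was 9.04, 9.01 and 9.05, Psmc4 was 9.72, 9.66 and 9.72, and Psmc5 was 10.19, 10.12 and 10.21, each with mouse 1 below the control and mouse 2 at or above it. Psmc3 was 10.55, 10.55 and 10.57. The main probe set of Psmc6 was 10.03 on all 3 arrays. A dim Psmc6 probe set, at 5.22 in the control and 5.07 in both acetate-fed mice, passed limma's test (adjusted p = 0.0094).

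The 19S non-ATPase subunits held both the lowest and the highest constitutive differences. Psmd3, a scaffold subunit of the 19S lid, was 10.19 in the control kidney, 9.89 in mouse 1 and 9.91 in mouse 2 (mean 9.90 ± 0.015, SD, n = 2). It was 1.24-fold and 1.22-fold lower, with acetate-fed values nearly equal and apart from the control, and had the lowest adjusted p of the constitutive genes (limma, SE 0.016, adjusted p = 0.099). Psmd12, another scaffold subunit of the lid, was 10.17, 9.99 and 10.10, and Psmd6 was 10.75, 10.61 and 10.64. Psmd4, a ubiquitin receptor, was 10.70, 10.56 and 10.61. Psmd7 was 8.56, 8.52 and 8.56, Psmd8 was 10.67, 10.67 and 10.72, and neither differed from the control in both mice. The deubiquitinase subunit Psmd14, which removes ubiquitin chains before entry, was 10.12, 10.11 and 10.11.

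Psmd1, Psmd2 and Psmd13 were the 3 constitutive genes higher in both mice. Psmd2, a large base subunit, was 10.35 in the control kidney, 10.44 in mouse 1 and 10.40 in mouse 2. Psmd13 was 9.33, 9.37 and 9.45, and 3 of its 4 tested probe sets were higher in both mice, the fourth being equal on all arrays. Psmd1 was 10.05, 10.06 and 10.11. The adjusted p-values of these genes by limma were 0.86 for Psmd1, 0.56 for Psmd2 and 0.74 for Psmd13.

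The activators that interferon-gamma does not induce were lower than the control in both mice, as was the regulator Psmf1. Psme3, the nuclear activator PA28 gamma, was 7.91 in the control kidney, 7.56 in mouse 1 and 7.80 in mouse 2, or 1.28-fold and 1.08-fold lower (limma adjusted p = 0.80). Its other tested probe set was lower in mouse 1 and higher in mouse 2. Psme4, the activator PA200, was 9.55 in the control and 9.46 in both acetate-fed mice (limma adjusted p = 0.078), and 3 of its 3 tested probe sets had a mean below the control. Without the intensity trend in limma Psme4 passed (adjusted p = 0.024), as it did with no filter (adjusted p = 0.036). Psmf1, known as PI31, differed by -0.070 and -0.0038, and 4 of its 4 tested probe sets had a mean below the control. By their main probe sets, the inducible chain Psme1 and the nuclear Psme3 of the PA28 family thus stood on opposite sides of the control in both mice.

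The assembly chaperones of the 20S core were lower in both mice at 3 of 4 genes. Psmg1, which helps to seed the alpha ring, was 9.41 in the control kidney, 9.17 in mouse 1 and 9.25 in mouse 2 (limma adjusted p = 0.45). Psmg2, its partner, was 8.20, 8.03 and 8.13. Psmg3 and Psmg4, which act as another pair, differed by at most 0.041 in size, at 8.12, 8.08 and 8.09 and at 8.54, 8.53 and 8.54. The 19S chaperones Psmd5, Psmd9 and Psmd10 differed by at most 0.068 in size, with 1 of 3 lower in both mice. Psmd5 was 8.90, 8.84 and 8.91, Psmd9 was 8.43, 8.36 and 8.42, and Psmd10 was 7.74, 7.69 and 7.79. Psmc3ip, a meiotic recombination factor, was 6.20 on all 3 arrays, while a dimmer Psmc3ip probe set was 4.82, 4.40 and 4.53. Psme3ip1, which binds PA28 gamma, was 9.02 on all 3 arrays.

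Of the 84 tested member probe sets, 4 passed limma's test, 2 as lower (Psmc6, Psma6) and 2 as higher (Psmd11, Psmd4), and none of the 4 stands for its gene. Over all 27022 tested probe sets limma called 5.35% lower and 5.18% higher. All 4 had exactly equal acetate-fed values, as had 92.3% of all calls, and levels between 4.61 and 6.10. Such ties occurred at 20 of the 84, beside 33.7% of all tested probe sets. The higher Psmd11 probe set was 4.61 in the control and 4.81 in both mice (adjusted p = 0.0091), whereas the main Psmd11 probe set was 10.93, 10.89 and 10.83. The called Psmd4 probe set was 6.00 in the control and 6.10 in both mice (adjusted p = 0.016), against the lower main probe set given above. For 6 of the 22 members with more than 1 tested probe set, the means lay on both sides of the control.

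**Figure D3:**
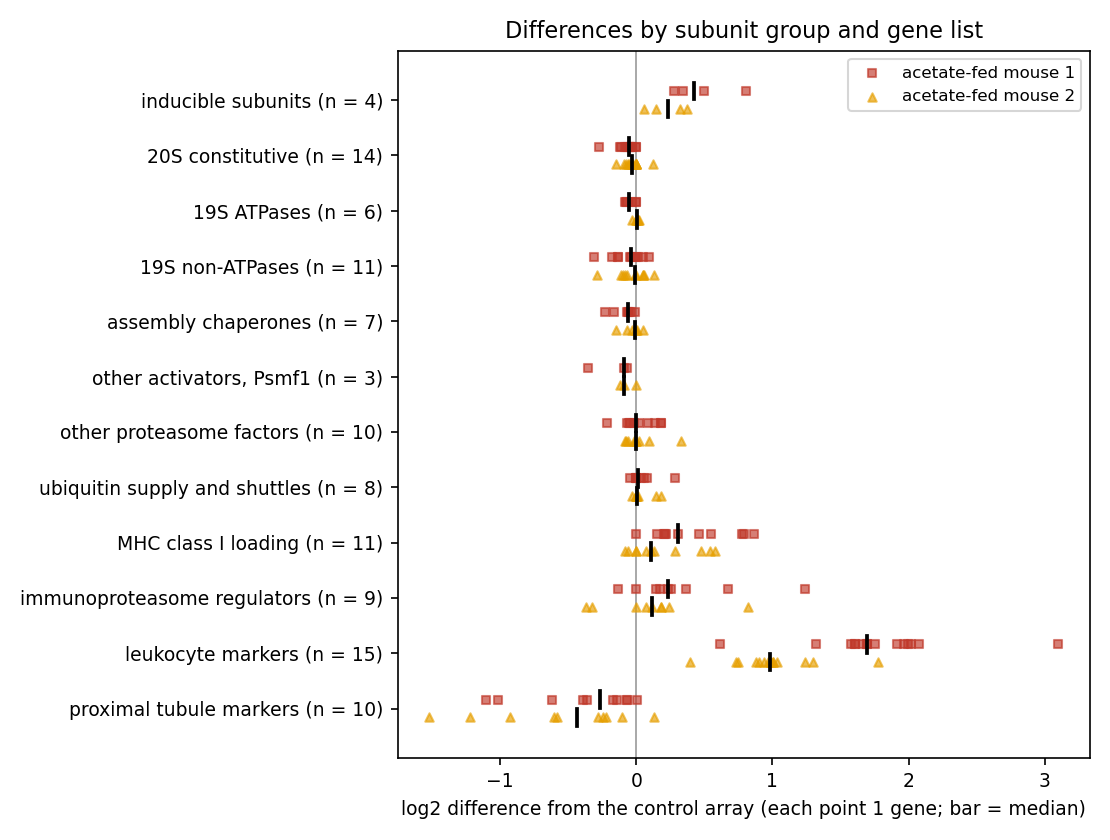
Log2 difference from the control array (x axis) for each gene of the subunit groups and of related gene lists (y axis), squares for acetate-fed mouse 1 and triangles for mouse 2, with a black bar at each median. The inducible subunits, the MHC class I loading genes and the immunoproteasome regulators have medians above 0 in both mice, the leukocyte markers lie furthest to the right, and the constitutive groups lie close to 0.

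Genes that load MHC class I with the peptides made by the proteasome exceeded the control in both mice at 7 of 11 genes and were below it in both at 0. Their medians were 0.31 for mouse 1 and 0.11 for mouse 2, and 4 of the 11 were at least 1.2-fold higher in both. Tap1, which shares its promoter window with Psmb9, was 6.65 in the control kidney, 7.43 in mouse 1 and 6.93 in mouse 2, or 1.71-fold and 1.22-fold higher (limma adjusted p = 0.76). H2-D1 was 1.82-fold and 1.45-fold higher, H2-K1 1.73-fold and 1.49-fold, and the tapasin gene Tapbp 1.46-fold and 1.39-fold. B2m, the light chain of MHC class I, was 12.72, 13.18 and 12.82. None of the 11 passed limma's test by the probe set that stands for its gene. Dimmer probe sets with tied acetate-fed pairs did pass. Limma called them higher for H2-K1 (adjusted p = 0.011) and lower for Pdia3 (adjusted p = 0.010). For H2-D1, 1 was called higher (adjusted p = 0.030) and 1 lower (adjusted p = 0.0096). With tied pairs left out of the limma fit 4 of the 11 passed by the probe set that stands for the gene. Their adjusted p was 0.00028 for H2-D1, 0.00016 for H2-K1, 0.0056 for Tapbp and 0.036 for Tap1. Of all genes left in that fit, 6.6% were called higher. Every leukocyte marker and every tested adipose marker passed in it as well, with a limma adjusted p of 5.0e-08 for Lyz2 and 4.9e-20 for Adipoq.

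Of 9 tested regulators of the inducible subunits, 6 were higher and 1 was lower in both mice, with medians of 0.24 and 0.12, and none passed limma's test. Nlrc5, the transactivator of MHC class I genes, was 4.39 in the control kidney, 5.63 in mouse 1 and 5.21 in mouse 2, or 2.36-fold and 1.76-fold higher (limma adjusted p = 0.45). Irf1, the interferon regulatory factor that acts at the shared Psmb9 and Tap1 promoter, was 8.04, 8.72 and 8.28, or 1.60-fold and 1.18-fold higher (limma adjusted p = 0.77). Ifngr2, a chain of the interferon-gamma receptor, was 1.29-fold and 1.13-fold higher. With tied pairs left out of the limma fit Nlrc5 (adjusted p = 0.00015) and Irf1 (adjusted p = 0.0497) passed. Among all genes left in that fit, 6.6% were called higher. The kinase gene Jak2 went the other way and was 1.10-fold and 1.25-fold lower.

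Of 10 tested proteasome factors outside the naming rule, 3 were higher and 4 lower in both mice. Their medians were 0.0010 and -0.0034, with differences from -0.21 to 0.33. None passed limma's test by the probe set that stands for its gene. Dimmer probe sets of Usp14 (adjusted p = 0.0091) and Ube3c (adjusted p = 0.013), each with a tied acetate-fed pair, were called higher by limma. Nfe2l1, the transcription factor NRF1 that raises constitutive subunit genes when proteasomes are inhibited, was 9.42 in the control kidney, 9.60 in mouse 1 and 9.75 in mouse 2 (limma adjusted p = 0.58). Pomp, the maturation factor of the 20S core, was 10.73, 10.68 and 10.67. Uchl5, a deubiquitinase of the 19S particle, was 8.70, 8.48 and 8.61. Of 8 tested genes of ubiquitin supply and shuttling, 3 were higher in both mice, 0 were lower in both and 3 were equal on all arrays. Ubqln2, a shuttle that carries ubiquitin-tagged proteins to the proteasome, was the one furthest from the control, at 8.61, 8.90 and 8.80.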

How the data were processed

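Kidney RNA of 3 mice (1 control, 2 acetate-fed) was measured on 1 Affymetrix array each. The authors deposited log2 values for 45101 probe sets with array medians of 4.91, 4.94 and 4.93. The submitters' processing notes name MAS5. Beyond that name, how values were summarised, normalized or filtered, and software versions, were not given in the sources used here. Exact ties between arrays (30.0% of probe sets equal on all 3) favour small, tied differences in limma's test. No scanner file was used, so signal over background is unknown, and precision is limited by the number of arrays.

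Probe sets were named by the platform annotation, with 34945 having 1 symbol, 932 several and 9160 none, and 64 control probe sets were left out. RefSeq held the genes of 34741 of them, and 0 symbols changed. The upper 60% by mean (27022 probe sets, mean at least 4.21) were fitted with limma 3.58.1 in R 4.3.3 (lmFit, eBayes with trend, 2 groups, Benjamini-Hochberg at 0.05). The tested probe set of highest mean stood for each gene, and folds of 1.2 and 2 in both mice were counted without a test. All members were named, and of other lists up to 4 genes with the largest same-direction difference and 7 fixed genes. Values were used as deposited. The fit was checked on simulated data (27022 probe sets, 200 changed, 20 runs), where it recovered 98.75% of 2-fold and 100% of 4-fold changes. These simulated arrays held no ties, and probe sets of similar level were given the same noise. On the real arrays limma called 1 of 5 adipose markers, of which 4 were at least 2-fold lower in both mice. It called 0 of 15 leukocyte markers, of which 6 were at least 2-fold higher in both. The recovered shares therefore do not tell how often the test finds such changes on these arrays. Alternatives were quantile normalization, median centring, other filters, 16 added on the linear scale, other choices of probe set, no trend, no tied pairs, and each acetate-fed mouse left out. Members and lists were chosen with earlier results of these data known. Python 3.11.15, pandas 2.3.3 and matplotlib 3.10.9 were used.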

Additional observations from a re-analysis of the deposited data

How the results depend on the processing

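All 4 tested inducible subunits were higher than the control in both mice with quantile normalization and with median centring. The other filters and probe set choices could not change this, because each of these genes has 1 tested probe set. Nor could 16 added on the linear scale. With a mouse left out, only the remaining mouse was counted. The inducible minus constitutive median ranged from 0.24 (without mouse 1) to 0.47 (without mouse 2) around 0.34. The 3 replacement pairs kept their direction under each alternative, and each of their genes likewise has 1 tested probe set. Limma's counts over all probe sets (1400 higher, 1446 lower) went to 0 and 0 with quantile normalization, with median centring and in the upper 40% of probe sets (4289, 4959 and 3513 at an unadjusted p under 0.05), and to 3140 and 3383 with no filter. With tied acetate-fed pairs left out 890 were lower and 1174 higher. Constitutive subunits higher in both mice numbered 5 with quantile normalization against 3. With a mouse left out the count is of 1 mouse and not of both. By that count 3 were higher in mouse 1 and 9 in mouse 2, beside 4464 and 4912 of all 13473 tested genes. Those lower in both numbered 25 with median centring against 15. Counted in 1 mouse, 23 were lower in mouse 1 and 16 in mouse 2, beside 5682 and 5047 of all 13473 tested genes. Psmb7 turned from -0.012 to 0.020 with quantile normalization. The cause was not tested. Leaving out a mouse leaves no residual degree of freedom and gives values without a test, and Psme4, whose pair is tied, has no value without tied pairs. No paired analysis was possible because the control has no number in the labels and stands alone. One control array and unknown signal over background limit all values.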
